A study of Mus musculus with 9 samples.

Results

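The aminoacyl-tRNA synthetase genes were examined in mouse embryonic fibroblasts (MEFs). Members were all genes of the deposited expression table whose symbol is the 1-letter code of an amino acid followed by ars, with an optional a, b or digit, together with *Eprs*. The rule found 37 members among the 15184 genes of the table, and 17 of them are listed there under an older symbol, such as *Aars* for *Aars1* and *Lars* for *Lars1*. By what is known of their products, 18 encode cytosolic enzymes, 17 encode mitochondrial enzymes, and *Gars* and *Kars* supply both compartments. The threonine gene *Tarsl2* is in the table but is not covered by the rule and is given separately.

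To follow cells with raised HNRNPK, polyA+ RNA from MEFs was sequenced in 9 libraries, which the labels divide into Empty and the lines SAM1 and SAM2, with 3 libraries each. All cells were grown in DMEM with 10% fetal bovine serum and antibiotics. The genotype label of the first group is Empty vector, and both lines are labelled Hnrnpk_SAM. The study's methods describe a vector with a non-targeting guide for control cells. They print the same sequence for this guide and for the *Hnrnpk* guide named sgHnrnpk2. SAM is CRISPR activation, in which a catalytically inactive Cas9, a guide RNA and a helper construct bring activator proteins to a promoter, here that of *Hnrnpk*, an RNA- and DNA-binding protein. The labels do not say which guide each line carries, whether a line is 1 clone, or whether libraries of a line are separate cultures, so p-values measure only the spread between these libraries.

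The study reports raised *Hnrnpk* RNA by qRT-PCR and raised HNRNPK protein by Western blot in its SAM MEFs. In the sequenced libraries *Hnrnpk*, the targeted gene, was not higher in every one labelled Hnrnpk_SAM. It stood at 25058, 26098 and 26164 normalized counts in Empty, 24102, 24045 and 23619 in SAM1 and 26608, 26859 and 26221 in SAM2. The SAM1 libraries lay below all empty vector libraries and the SAM2 libraries above them. In the limma fit it fell in SAM1 (log2 fold change -0.11 ± 0.027, adjusted p = 0.00252) and did not pass the threshold in SAM2 (0.044 ± 0.027, adjusted p = 0.159). Here and below, the value after ± is the standard error of the limma estimate on the log2(normalized count + 1) scale. Directions below are therefore given for the libraries as labelled. Reads on listed genes, recovered from the steps of the normalized values, ranged from 41759636 to 49026626 per library. All 11 fibroblast markers were in the table, and their summed normalized counts were 1036178 to 1127987 in empty vector, 877974 to 934729 in SAM1 and 1159697 to 1198282 in SAM2. The 4 endothelial markers summed to 301 to 357 in empty vector, 4613 to 4988 in SAM1 and 638 to 689 in SAM2. Of the leukocyte markers *Ptprc* and *Adgre1* were not listed, and *Cd68* and *Lyz2* together were at 393 to 505 in empty vector, 673 to 734 in SAM1 and 585 to 621 in SAM2, without overlap. *Cdh1*, the 1 epithelial marker of 4 that was listed, was at 28.4 to 41.9 in empty vector, 85.9 to 93.8 in SAM1 and 20.4 to 39.6 in SAM2. None of the 4 neural markers was listed. In bulk libraries fewer cells of a type and less RNA per cell cannot be told apart, and the part of these marker shifts in the results was not tested.

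An aminoacyl-tRNA synthetase joins an amino acid to its tRNA at the expense of ATP, and the charged tRNA then carries it to the ribosome. Cells keep a cytosolic set for the translation of nuclear messages and a separate set, encoded in the nucleus and imported, for translation inside mitochondria. In mammals several cytosolic enzymes assemble with the scaffold proteins encoded by *Aimp1*, *Aimp2* and *Eef1e1* into the multisynthetase complex. When amino acids run short, the kinase GCN2 raises translation of the transcription factor ATF4, which acts on genes of amino acid synthesis, amino acid transport and tRNA charging through composite elements that contain TGATGNAA.

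Promoters of 27 members were in the RefSeq table for GRCm38.p6, covering 250 bases before to 50 after the start, with 13 members of the cytosolic set (*Gars* and *Kars* included) and 14 mitochondrial members. The letters TGATGNAA were sought on both strands. They occurred in promoters of 5 of the 13 cytosolic members (38.5%) and of none of the 14 mitochondrial members. By gene, they occurred in 4.51% of all 27025 genes with a promoter and 2.86% of the 11165 in the deposited table. For each of these 5 genes 1 match is printed below because they are followed through the comparisons that come after. Each line gives the position and 26 bases of the gene's own strand, with the match in capitals, which appears as its reverse complement for all but *Yars*.
Yars, chr4:129189897-129189922, plus strand: gagctcagcTGATGCAAcccgacggg
Gars, chr6:55037962-55037987, plus strand: gctgcgctaTTTCATCAtgcaccggg
Aars, chr8:111033842-111033867, plus strand: cgggtcactTTTCATCAgagcgctct
Iars, chr13:49682128-49682153, plus strand: ctgtcagtaTTGCATCAcctccagac
Tars, chr15:11399657-11399682, minus strand: ggagtcccgTTGCATCAgctggttag
The printed matches began between base -30 (*Gars*) and base 10 (*Aars*) relative to the start. The E-box letters CACGTG, a motif of the MYC and MITF families that reads the same on both strands, occurred in 4 of the 13 cytosolic members (*Aars*, *Farsb*, *Iars* and *Tars*) and in *Ears2* among the mitochondrial ones, against 8.09% of all genes with a promoter and 11.4% of those in the deposited table. A match describes the letters only. *Cars*, *Hars*, *Hars2*, *Lars*, *Nars*, *Pars2*, *Rars*, *Vars* and *Wars* were not searched.

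The cytosolic genes were mostly more abundant than the mitochondrial ones. Per kilobase of annotated exon in empty vector, the median level was 1883 normalized counts over the 20 cytosolic-set members (range 561 to 6209) and 76.2 over the 17 mitochondrial members (38.9 to 777, the highest being *Lars2*). *Nars*, the asparagine enzyme, was highest at 6209 normalized counts per kilobase, followed by *Aars* at 3799, *Rars* at 3724 and *Sars* at 3682. The cytosolic set took 0.604% to 0.626% of all normalized counts in the empty vector libraries, 0.563% to 0.576% in SAM1 and 0.741% to 0.742% in SAM2. The 3 groups did not overlap in this share, with SAM1 lowest and SAM2 highest. The summed fibroblast markers lay in the same order, and their part in the share was not tested. The 16 mitochondrial members other than *Lars2* took 0.0359% to 0.0367% of all normalized counts in empty vector, 0.0344% to 0.0349% in SAM1 and 0.0343% to 0.0350% in SAM2. Empty vector lay above both lines, which overlapped each other.

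Taken as 1 group of 6, the libraries labelled Hnrnpk_SAM differed from empty vector in 17 members, of which 6 rose and 11 fell (adjusted p below 0.05, limma). This fit counts the 6 libraries of 2 lines as replicates, so the difference between the lines enters its spread. The standard error was 0.19 pooled and 0.026 by line for *Cars*, and 0.17 and 0.024 for *Tars*. *Cars* was not called (-0.43, limma adjusted p = 0.0814), although all 6 libraries lay below empty vector. Over all genes tested, 26.8% were called higher and 27.0% lower in this comparison (53.9% in either direction), so calls were common throughout the table. The members that rose were *Cars2*, *Tars*, *Vars*, *Hars*, *Aars2* and *Kars*, and those that fell were *Ears2*, *Nars2*, *Pars2*, *Fars2*, *Dars*, *Iars2*, *Rars2*, *Rars*, *Yars2*, *Mars2* and *Qars*. Each of these 17 was called in the same direction in at least 1 of the lines taken alone. Calls for *Cars2*, *Kars*, *Dars*, *Ears2*, *Fars2*, *Iars2*, *Nars2*, *Pars2*, *Rars2* and *Yars2* held when any single library was left out. The other 7 calls did not. Those for *Aars2* and *Rars* were lost without any 1 of the Empty or SAM1 libraries, those for *Tars* and *Vars* without any 1 of the Empty or SAM2 libraries, that for *Qars* without any library but SAM2 replicate 1, that for *Hars* without Empty replicate 1 or 3, and that for *Mars2* without Empty replicate 2. The adjusted p reached 0.126 without Empty replicate 1 for *Aars2*, 0.0769 without Empty replicate 1 for *Hars*, 0.0739 without Empty replicate 2 for *Mars2*, 0.143 without Empty replicate 2 for *Qars*, 0.116 without Empty replicate 2 for *Rars*, 0.109 without Empty replicate 1 for *Tars* and 0.148 without Empty replicate 3 for *Vars*, and with the replicate number as a block the calls for *Aars2*, *Qars*, *Rars*, *Tars* and *Vars* were also lost. Conversely, *Cars* passed without any 1 of the SAM2 libraries (0.0498, 0.0472 and 0.0498) and *Farsa* without SAM1 replicate 2 (0.0206).

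The 2 lines were next taken separately. In SAM1 against empty vector, 7 members rose and 24 fell (of all genes 37.3% were higher and 36.9% lower, 74.3% together), with a median log2 fold change of -0.29. In SAM2 against empty vector, 14 rose and 14 fell (35.2% and 35.3% of all genes, 70.5% together), with a median of -0.026. In SAM2 against SAM1, 21 were higher and 7 lower (31.1% and 29.2% of all genes, 60.3% together), with a median difference of 0.21. The median over all genes was within 0.0093 of 0 in each of these comparisons. Both lines are compared with the same empty vector libraries. Values given below as relative to neighbours come from a repeated fit, in which the median deviation of the other listed genes within 5 Mb was first subtracted in every library. This is not the same as subtracting the regional median of fold changes from a member's own fold change, and the plain subtraction is named where it is used. In the pooled comparison the calls for *Aars2*, *Hars*, *Iars2*, *Pars2*, *Rars*, *Rars2*, *Tars* and *Vars* were lost relative to neighbours, and those for *Mars2* and *Qars* changed sign.

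The cytosolic and mitochondrial sets were then read separately, with no test between the sets. Of the 20 cytosolic members, 14 fell and 4 rose in SAM1 (median log2 fold change -0.34), whereas 6 fell and 12 rose in SAM2 (median 0.12). Set against SAM1, SAM2 was higher in 16, lower in *Hars*, and past the threshold in neither direction for *Farsa*, *Kars* and *Qars* (median difference 0.43). Of the 17 mitochondrial members, 10 fell and 3 rose in SAM1 (median -0.23), 8 fell and 2 rose in SAM2 (median -0.20), and the lines differed in 11, with SAM2 higher in 5 and lower in 6 (median difference 0.016).

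**Figure D1:**
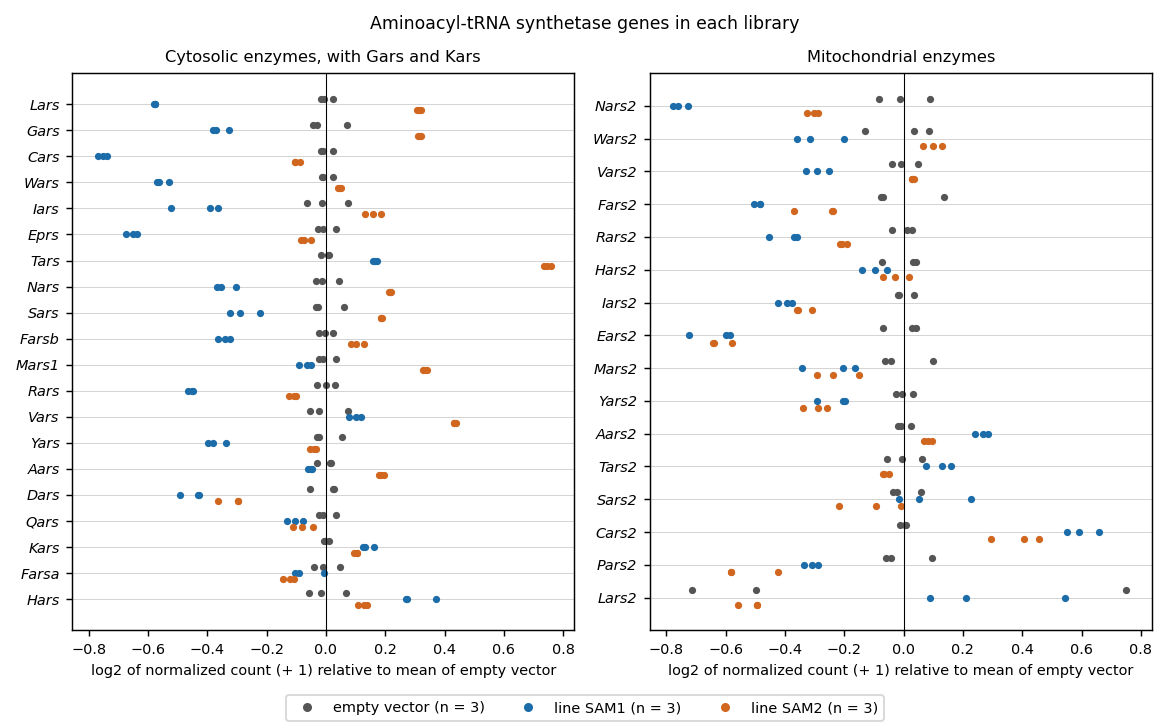
Each point is 1 library, plotted as log2 of its normalized count (plus 1) relative to the mean of the 3 empty vector libraries, for the cytosolic set (left) and the mitochondrial genes (right), ordered by the difference between the lines. In the cytosolic panel SAM1 points lie mostly left of 0 and SAM2 points to their right, while *Lars2* shows widely scattered empty vector libraries.

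Among cytosolic enzymes outside the multisynthetase complex, *Gars*, *Nars*, *Sars* and *Farsb* fell in SAM1 and rose in SAM2. Over all genes, 3.24% were called lower in SAM1 and higher in SAM2, and 7 members did so when the complex is included. The reverse pattern, higher in SAM1 and lower in SAM2, was called in 2.59% of all genes and in no member. *Gars*, the glycine enzyme, stood at 20665, 22382 and 20888 normalized counts in Empty, 16493, 16975 and 16359.6 in SAM1 and 26559, 26456 and 26639.8 in SAM2. The groups did not overlap, with log2 fold changes of -0.36 ± 0.032, adjusted p = 2.64e-07 in SAM1 and 0.32 ± 0.032, adjusted p = 1.07e-06 in SAM2, and SAM2 was 1.60-fold above SAM1. *Nars*, for asparagine, stood at 32757, 34572 and 33169 normalized counts in Empty, 25959, 27127 and 26239 in SAM1 and 38992, 38920.4 and 38821 in SAM2. Its SAM1 libraries were again the lowest and its SAM2 libraries the highest (-0.34 ± 0.028, adjusted p = 1.42e-07 and 0.22 ± 0.028, adjusted p = 1.47e-05), a difference of 0.56 ± 0.028. The rise of *Nars* in SAM2 lost its call relative to neighbours (0.080, adjusted p = 0.116) and relative to the median of its chromosome (0.076, adjusted p = 0.0633). *Sars*, which also charges the selenocysteine tRNA with serine, stood at 25911, 27664 and 26084 normalized counts in Empty, 21726, 22749.9 and 21218 in SAM1 and 30219, 30199 and 30294 in SAM2. No group overlapped another (-0.28 ± 0.033, adjusted p = 4.61e-06 in SAM1 and 0.19 ± 0.033, adjusted p = 1.85e-04 in SAM2), and the lines differed by 0.47 ± 0.033. *Farsb*, the beta subunit of the phenylalanine enzyme, stood at 3901, 4028 and 3953 normalized counts in Empty, 3131, 3162 and 3078 in SAM1 and 4201, 4331 and 4251 in SAM2. Its changes were -0.34 ± 0.029, adjusted p = 1.60e-07 and 0.11 ± 0.029, adjusted p = 0.00535, with no overlap and a difference of 0.45 ± 0.029. The alpha subunit *Farsa* fell in SAM2 (-0.12 ± 0.035, adjusted p = 0.00605) and gave -0.067 ± 0.035, adjusted p = 0.0961 in SAM1, where it passed the threshold without SAM1 replicate 2 (adjusted p = 0.0182) and lay at it without Empty replicate 1 (0.05). Of the 43-base stretches of annotated *Farsb* transcripts, 20.7% also occur in transcripts of the neighbouring gene *Sgpp2*. Here and below, such stretches were matched on either strand. The study's methods name a directional library kit, but whether reads were counted by strand was not stated.

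**Figure D2:**
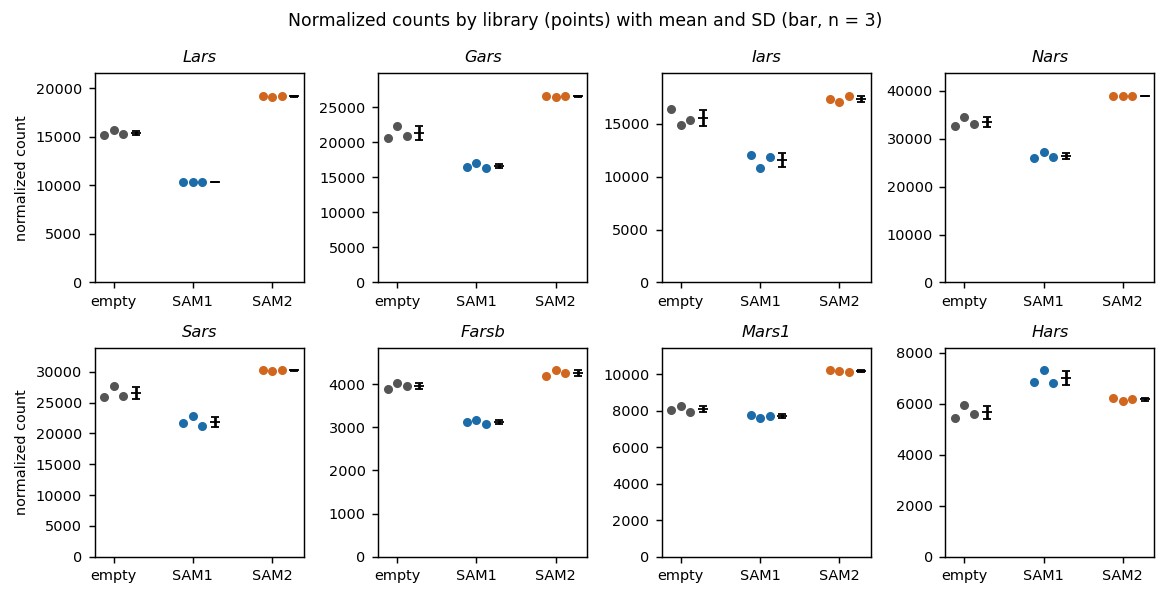
Normalized counts in each library (points, 3 per group) with the mean and SD (bars) for the 7 members that fell in SAM1 and rose in SAM2, and for *Hars*. *Lars* ranges from 10296 to 10316 in SAM1 and from 19046 to 19214 in SAM2, and *Hars* is the panel in which SAM1 is highest.

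The complex showed the same division for *Lars*, *Iars* and *Mars1*. *Lars*, the leucine enzyme and a sensor of leucine for mTORC1 signalling, had the largest difference between the lines of all members. It stood at 15191, 15652 and 15298 normalized counts in Empty, 10296, 10305 and 10316 in SAM1 and 19214, 19046 and 19131 in SAM2. The groups were far apart relative to their spread (-0.58 ± 0.024, adjusted p = 1.27e-10 in SAM1 and 0.31 ± 0.024, adjusted p = 7.83e-08 in SAM2), and SAM2 was 1.86-fold above SAM1 (log2 difference 0.89 ± 0.024, adjusted p = 7.74e-12). *Iars*, for isoleucine, stood at 16348, 14849 and 15397 normalized counts in Empty, 12065, 10806 and 11854 in SAM1 and 17342, 17011 and 17652 in SAM2. All its SAM1 libraries were below and all its SAM2 libraries above empty vector (-0.42 ± 0.043, adjusted p = 1.12e-06 and 0.16 ± 0.043, adjusted p = 0.00516), a difference of 0.58 ± 0.043. *Mars1*, the methionine enzyme, stood at 8007, 8252 and 7943 normalized counts in Empty, 7785, 7574 and 7725 in SAM1 and 10223, 10168 and 10120.2 in SAM2. Its rise in SAM2 (0.33 ± 0.026, adjusted p = 1.05e-07) was clear of the spread. The small fall in SAM1 (-0.068 ± 0.026, adjusted p = 0.0327) lost its call when Empty replicate 2 (adjusted p = 0.103), SAM1 replicate 2 (0.0826), SAM1 replicate 3 (0.061), SAM2 replicate 1 (0.0516) or SAM2 replicate 2 (0.0517) was left out, and turned positive with quantile normalization (0.045) or relative to neighbours (0.027, against -0.0069 by plain subtraction). *Mars1* transcripts share 40.6% of their 43-base stretches, matched on either strand, with *Ddit3*, which fell in both lines (log2 fold changes -0.45 ± 0.039 and -0.14 ± 0.039).

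Of the other complex members, *Dars*, *Eprs*, *Qars* and *Rars* were lower in both lines and *Kars* was higher in both. Of all genes, 26.4% were called lower and 25.9% higher in both. *Dars*, the aspartate enzyme, stood at 7033, 7453 and 7435 normalized counts in Empty, 5198, 5415 and 5429 in SAM1 and 5954, 5944 and 5681 in SAM2. Neither line overlapped empty vector (-0.45 ± 0.033, adjusted p = 4.43e-08 in SAM1 and -0.32 ± 0.033, adjusted p = 1.72e-06 in SAM2). *Eprs*, which carries both glutamate and proline activities in 1 protein, fell strongly in SAM1 (-0.65 ± 0.026, adjusted p = 8.68e-11) and slightly in SAM2 (-0.069 ± 0.026, adjusted p = 0.0315), a call that was lost without Empty replicate 1 (adjusted p = 0.102), SAM2 replicate 1 (0.111) or SAM2 replicate 2 (0.0892), and that was 0.30 relative to neighbours. In SAM1 the neighbours of *Eprs* had a median of -0.34, and plain subtraction left -0.31. *Rars*, for arginine, fell by 0.46 ± 0.025 in SAM1 and 0.11 ± 0.025 in SAM2 on the log2 scale, the latter at 0.033 relative to its neighbours and 0.035 with quantile normalization. Its neighbours had a median of -0.30 in SAM1, where plain subtraction left -0.16. *Qars*, for glutamine, had the smallest changes of the group (-0.10 ± 0.029, adjusted p = 0.00621 and -0.078 ± 0.029, adjusted p = 0.03). Its call in SAM2 was lost without Empty replicate 2 (adjusted p = 0.0923), Empty replicate 3 (0.0507), SAM2 replicate 2 (0.0765) or SAM2 replicate 3 (0.127), and *Qars* was at 0.085 in SAM1 and 0.15 in SAM2 relative to its neighbours. *Kars*, for lysine, stood at 10407, 10328 and 10299 normalized counts in Empty, 11289, 11562 and 11324 in SAM1 and 11118, 11111 and 11055 in SAM2. Both lines lay above empty vector by a small margin (0.14 ± 0.024, adjusted p = 1.65e-04 and 0.10 ± 0.024, adjusted p = 0.0022), with a difference between them of -0.038 ± 0.024, adjusted p = 0.193. Relative to the chromosome median the SAM1 call of *Kars* was lost (0.045, adjusted p = 0.117).

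The complex as a whole thus held 7 genes that fell and 1 that rose in SAM1, and 4 of each in SAM2. Of all genes, 36.9% were called lower and 37.3% higher in SAM1, and 35.3% and 35.2% in SAM2. Relative to neighbours, *Mars1* and *Qars* in SAM1 and *Eprs*, *Qars* and *Rars* in SAM2 turned positive. The scaffold genes of the complex fell in both lines. *Aimp1* changed by -0.27 ± 0.049, adjusted p = 2.03e-04 in SAM1 and -0.17 ± 0.049, adjusted p = 0.00621 in SAM2. For *Aimp2* the changes were -0.27 ± 0.056, adjusted p = 5.85e-04 and -0.36 ± 0.056, adjusted p = 6.28e-05. *Eef1e1* changed by -0.33 ± 0.039, adjusted p = 4.67e-06 and -0.38 ± 0.039, adjusted p = 1.52e-06. None of the 3 scaffold genes passed the threshold between the lines, with differences of 0.10 ± 0.049, -0.087 ± 0.056 and -0.046 ± 0.039.

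*Tars*, *Vars* and *Hars* rose in both lines. *Tars*, for threonine, stood at 13865, 14129 and 14101 normalized counts in Empty, 15669.6, 15751 and 15825 in SAM1 and 23529, 23352 and 23769.9 in SAM2. SAM1 lay slightly above empty vector (0.17 ± 0.024, adjusted p = 2.82e-05) and SAM2 well above both (0.75 ± 0.024, adjusted p = 1.37e-11), the largest rise of any member in that line. Listed genes within 5 Mb of *Tars* were also high, with a median log2 fold change of 0.29 in SAM1 and 0.45 in SAM2 over 36 genes. In the repeated fit relative to neighbours *Tars* was at -0.16 in SAM1 and 0.30 in SAM2, and by plain subtraction at -0.12 and 0.30. *Vars*, for valine, stood at 14052, 15042 and 13763 normalized counts in Empty, 15489, 15339.8 and 15078 in SAM1 and 19292, 19286 and 19372 in SAM2. Its rise in SAM2 (0.44 ± 0.032, adjusted p = 5.35e-08) exceeded that in SAM1 (0.10 ± 0.032, adjusted p = 0.0129) by 0.34 ± 0.032, adjusted p = 1.35e-06, and the SAM1 call was lost without Empty replicate 3 (adjusted p = 0.0677) and turned to -0.085 relative to its neighbours. *Hars*, for histidine, stood at 5447, 5939 and 5598 normalized counts in Empty, 6844, 7321 and 6825 in SAM1 and 6225, 6103 and 6181 in SAM2. It was the only cytosolic member called lower in SAM2 than in SAM1 (-0.18 ± 0.037, adjusted p = 0.00101), having risen by 0.31 ± 0.037, adjusted p = 6.39e-06 in SAM1 and 0.12 ± 0.037, adjusted p = 0.009 in SAM2. Relative to its neighbours the SAM2 value of *Hars* was -0.033. *Hars* and the adjacent *Hars2* share 5.26% of the 43-base stretches of *Hars*.

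*Cars*, *Wars*, *Yars* and *Aars* complete the cytosolic set. *Cars*, for cysteine, stood at 8622, 8871 and 8661 normalized counts in Empty, 5173, 5219 and 5121 in SAM1 and 8111, 8195 and 8109.5 in SAM2. It fell to far below both other groups in SAM1 (-0.75 ± 0.026, adjusted p = 1.65e-11) and by less in SAM2 (-0.099 ± 0.026, adjusted p = 0.00369), with a difference of 0.65 ± 0.026, adjusted p = 2.40e-10. Its neighbours had median fold changes of -0.41 and -0.33, and relative to neighbours *Cars* was still lower in SAM1 (-0.36) but higher in SAM2 (0.22). *Wars*, the interferon-inducible tryptophan enzyme, stood at 6746, 6899 and 6731 normalized counts in Empty, 4596, 4576 and 4704 in SAM1 and 6990.3, 7015 and 7039 in SAM2. Only its fall in SAM1 passed the threshold (-0.55 ± 0.026, adjusted p = 4.51e-10), SAM2 was at 0.047 ± 0.026, adjusted p = 0.131, and the lines differed by 0.60 ± 0.026. The rise of *Wars* in SAM2 was called with quantile normalization, relative to the chromosome median and relative to neighbours. *Yars*, for tyrosine, fell in SAM1 (-0.37 ± 0.030, adjusted p = 1.10e-07) and gave -0.042 ± 0.030, adjusted p = 0.229 in SAM2. *Aars*, for alanine, rose in SAM2 (0.19 ± 0.025, adjusted p = 1.43e-05) and gave -0.053 ± 0.025, adjusted p = 0.0699 in SAM1, a value that passed the threshold without Empty replicate 3 (adjusted p = 0.0371) and was 0.21 with quantile normalization. With DESeq2, relative to the chromosome median and relative to neighbours, *Aars* was called lower in SAM1. *Tarsl2*, the cytosolic threonine gene outside the rule, rose in SAM2 (0.22 ± 0.058, adjusted p = 0.00379) and gave 0.0021 ± 0.058, adjusted p = 0.976 in SAM1.

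**Figure D3:**
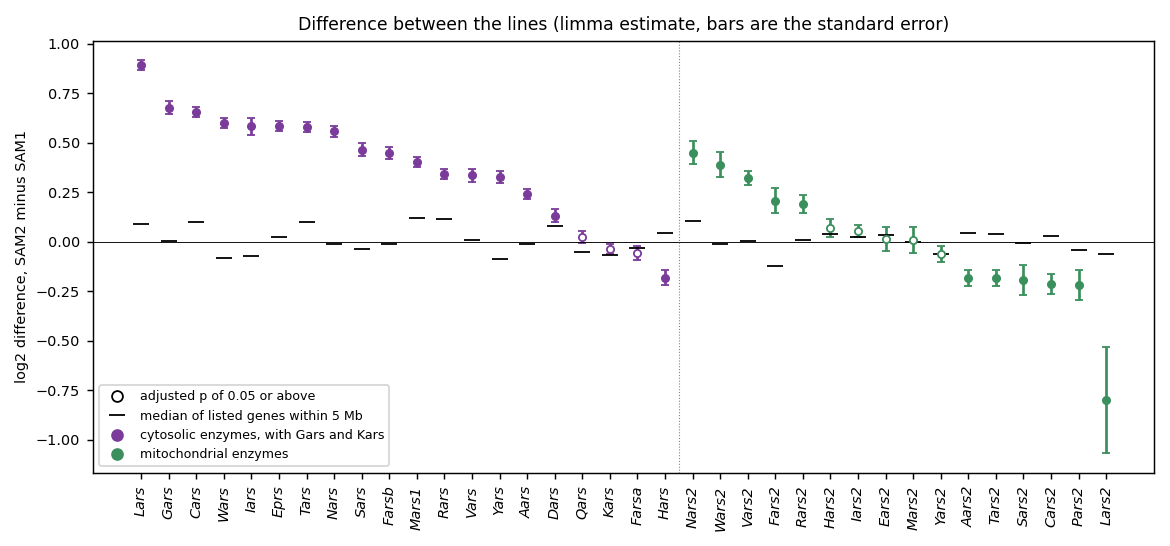
Difference between the lines by member (limma log2 estimate with its standard error, filled where the adjusted p was below 0.05), with a dash for the median difference of listed genes within 5 Mb. The dashes stay between -0.12 and 0.12, while the cytosolic points extend from -0.18 for *Hars* to 0.89 for *Lars*.

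Position on the chromosome was examined through the median of listed genes within 5 Mb of each member. Members lie on 15 chromosomes. Against empty vector the median of genes within 5 Mb reached -0.56 in SAM1 and -0.45 in SAM2 for the region of *Mars2*, and -0.40 and -0.42 for that of *Iars2*. Between the lines these regional medians were small, from -0.12 to 0.12. With the regional median difference plainly subtracted from that of each member, the median difference between the lines was 0.44 over the 20 cytosolic members and 0.011 over the 17 mitochondrial members.

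The mitochondrial enzymes fell in both lines more often than they rose. *Ears2*, *Fars2*, *Iars2*, *Mars2*, *Nars2*, *Pars2*, *Rars2* and *Yars2* were called lower in both. *Ears2*, for glutamate, stood at 499, 539 and 534 normalized counts in Empty, 317, 349 and 346 in SAM1 and 336, 350 and 335 in SAM2. Both lines lay below empty vector and overlapped each other (-0.64 ± 0.060, adjusted p = 5.20e-07 and -0.62 ± 0.060, adjusted p = 8.09e-07). Neighbours of *Ears2* had medians of -0.34 in SAM1 and -0.32 in SAM2, and plain subtraction left -0.30 in each line. *Nars2*, for asparagine, stood at 568, 609 and 540 normalized counts in Empty, 333, 346 and 337 in SAM1 and 464, 468 and 457 in SAM2. SAM1 was lowest and SAM2 intermediate, with no overlap (-0.75 ± 0.057, adjusted p = 4.81e-08 and -0.30 ± 0.057, adjusted p = 3.16e-04) and a difference of 0.45 ± 0.057, adjusted p = 1.62e-05. Relative to the chromosome median the SAM2 call of *Nars2* was lost (-0.075, adjusted p = 0.249). In SAM1 its neighbours had a median of -0.35, and plain subtraction left -0.41. *Pars2*, for proline, stood at 275, 278 and 306 normalized counts in Empty, 234, 231 and 227 in SAM1 and 191, 213 and 191 in SAM2. Here SAM2 was the lower line (-0.31 ± 0.074, adjusted p = 0.00193 in SAM1 and -0.53 ± 0.074, adjusted p = 2.57e-05 in SAM2), and the difference between the lines (-0.22 ± 0.074, adjusted p = 0.0215) was lost relative to the chromosome median and without SAM1 replicate 1 (adjusted p = 0.0614), SAM2 replicate 1 (0.0757) or SAM2 replicate 3 (0.0746). The fall of *Pars2* in SAM1 was lost relative to neighbours (-0.10, adjusted p = 0.28).

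*Fars2*, for phenylalanine, stood at 808, 936 and 812 normalized counts in Empty, 600, 608 and 608 in SAM1 and 720, 721 and 660 in SAM2. Both lines lay below all empty vector libraries, SAM1 further than SAM2 (-0.49 ± 0.061, adjusted p = 8.06e-06 and -0.28 ± 0.061, adjusted p = 0.0011), with a difference of 0.21 ± 0.061, adjusted p = 0.0101. The SAM2 call of *Fars2* was lost relative to the chromosome median (-0.11, adjusted p = 0.132). *Iars2*, for isoleucine, stood at 5353, 5162 and 5179.9 normalized counts in Empty, 4029, 3904 and 3986 in SAM1 and 4226, 4074 and 4085 in SAM2. It was lower than empty vector in every library of both lines (-0.40 ± 0.030, adjusted p = 4.90e-08 and -0.34 ± 0.030, adjusted p = 2.78e-07). Relative to neighbours both calls of *Iars2* were lost (-0.044, adjusted p = 0.269 in SAM1 and 0.032, adjusted p = 0.442 in SAM2). The same fit turned *Mars2*, for methionine, from -0.23 ± 0.066 and -0.23 ± 0.066 to 0.28 and 0.25, where plain subtraction gave 0.32 and 0.22. *Rars2*, for arginine, went from -0.20 ± 0.045 to 0.023 in SAM2, against 0.14 by plain subtraction. *Mars2* transcripts share 33.6% of their 43-base stretches with *Boll*, those of *Yars2* share 29.3% with *Dnm1l* and those of *Iars2* share 19.0% with *Rab3gap2*. Sharing is not given for every member, and in the cytosolic set it was 16.0% for *Yars* with *Nhsl3* and 10.8% for *Aars* with *Exosc6*.

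*Cars2*, for cysteine, was the only mitochondrial member called higher in both lines. It stood at 546, 540 and 547 normalized counts in Empty, 797, 860 and 821 in SAM1 and 669, 747 and 722 in SAM2. All 6 libraries of the lines lay above empty vector, SAM1 highest (0.60 ± 0.052, adjusted p = 2.10e-07 in SAM1, 0.39 ± 0.052, adjusted p = 1.84e-05 in SAM2 and -0.21 ± 0.052 between the lines). Genes within 5 Mb of *Cars2* had medians of 0.016 and -0.0042, and 22.1% of its 43-base stretches occur in transcripts of *Naxd*. *Aars2*, for alanine, stood at 745, 768 and 750 normalized counts in Empty, 891, 919 and 907 in SAM1 and 805, 798 and 791 in SAM2. It rose in SAM1 (0.26 ± 0.040, adjusted p = 4.90e-05) and gave 0.081 ± 0.040, adjusted p = 0.0869 in SAM2. *Tars2* rose in SAM1 (0.12 ± 0.040, adjusted p = 0.0133, or 0.0637 without Empty replicate 3 and 0.051, adjusted p = 0.304 relative to neighbours) and gave -0.062 ± 0.040, adjusted p = 0.181 in SAM2. *Vars2* and *Wars2* fell in SAM1 (-0.29 ± 0.037 and -0.29 ± 0.062). *Hars2*, *Lars2* and *Sars2* passed the threshold in neither line, although *Hars2* did in SAM1 without Empty replicate 1 (adjusted p = 0.0186). Relative to the chromosome median and relative to neighbours, *Hars2* was called lower in both lines and *Sars2* higher in SAM1. *Lars2* was called higher in SAM1 relative to neighbours. With quantile normalization, *Hars2* was called lower in SAM1 and *Sars2* lower in SAM2. *Sars2* differed between the lines (-0.19 ± 0.076, adjusted p = 0.0405), but not without SAM1 replicate 2 (adjusted p = 0.173), SAM1 replicate 3 (0.0565), SAM2 replicate 2 (0.169) or SAM2 replicate 3 (0.0763).

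The cytosolic and mitochondrial enzymes for the same amino acid could be set side by side in 17 pairs, with *Eprs* and *Fars2* each entering 2 of them. The signed difference, SAM2 minus SAM1, was higher for the cytosolic gene in 15 pairs. For valine the values were close, at 0.34 ± 0.032 for *Vars* and 0.32 ± 0.037 for *Vars2*. The exceptions were *Hars* with *Hars2* and *Farsa* with *Fars2*. For proline, *Eprs* gave 0.58 ± 0.026 and *Pars2* gave -0.22 ± 0.074, and for threonine *Tars* gave 0.58 ± 0.024 and *Tars2* gave -0.18 ± 0.040. These are descriptions of the estimates, and no test was made across the pairs.

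**Figure D4:**
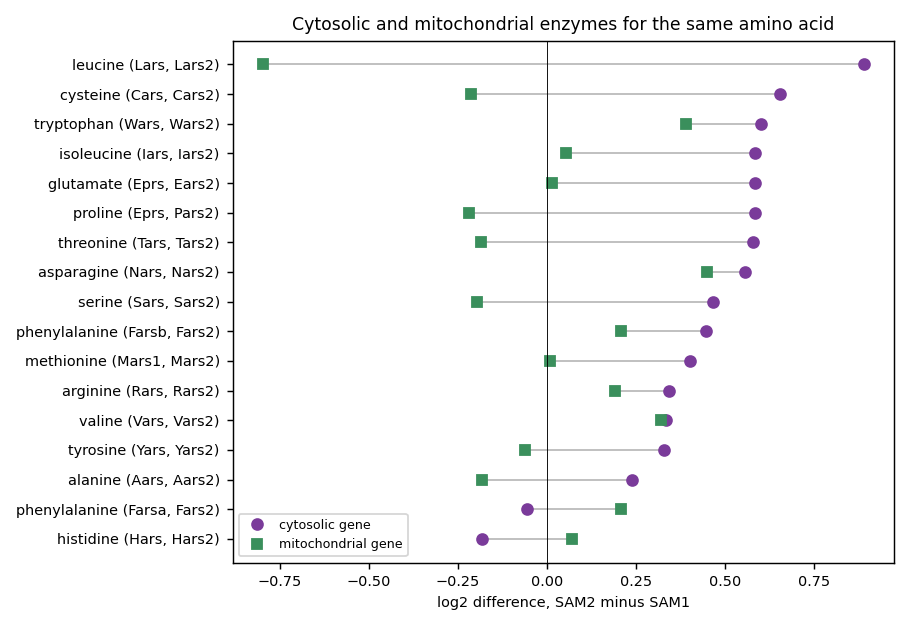
Log2 difference between SAM2 and SAM1 for the cytosolic gene (circle) and the mitochondrial gene (square) of each amino acid, joined by a line. The circle lies to the right of the square in 15 of 17 pairs, and leucine has the widest gap, from -0.80 ± 0.27 for *Lars2* to 0.89 ± 0.024 for *Lars*.

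*Lars2*, the mitochondrial leucine enzyme, stood apart in its spread. It stood at 8389.7, 9730.0 and 23119 normalized counts in Empty, 15907, 20052 and 14624 in SAM1 and 9753, 9321 and 9747 in SAM2. Empty replicate 3 was above every other library, and the groups SAM1 and SAM2 did not overlap. The coefficient of variation of *Lars2* was 59.3% in empty vector, 16.8% in SAM1 and 2.58% in SAM2, whereas the highest among the other 36 members was 8.53%, 8.86% and 7.35%. The fit with 3 groups uses 1 shared spread, so the scatter of *Lars2* in Empty also enters the comparison of the lines. The difference between the lines passed the threshold (-0.80 ± 0.27, adjusted p = 0.0211), but not without SAM1 replicate 2 (adjusted p = 0.0598), SAM2 replicate 1 (0.0501) or SAM2 replicate 2 (0.0561), nor with DESeq2 on the recovered reads (0.0862). Against empty vector it was called neither in SAM1 (0.44 ± 0.27, adjusted p = 0.161) nor in SAM2 (-0.36 ± 0.27, adjusted p = 0.245), yet SAM1 was called higher without Empty replicate 3 (0.89, adjusted p = 2.02e-05) and SAM2 lower without Empty replicate 1 (-0.64, adjusted p = 0.0352).

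*AY036118*, *mt-Rnr1* and *mt-Rnr2*, the last being the mitochondrial large-subunit rRNA, are given beside *Lars2* and were chosen after their values were seen. *AY036118* stood at 5.12, 10.5 and 29.2 normalized counts in Empty, 14.2, 26.7 and 50.8 in SAM1 and 9.89, 10.2 and 13.9 in SAM2. Empty replicate 3 was the highest empty vector library here too, while the highest SAM1 library was replicate 3 and not replicate 2. *mt-Rnr2* stood at 55478, 57203 and 60855 normalized counts in Empty, 158294, 162083 and 162089 in SAM1 and 100672, 98937 and 99557 in SAM2, rising in SAM1 (1.48 ± 0.033, adjusted p = 3.37e-13) and SAM2 (0.79 ± 0.033, adjusted p = 2.28e-10). *mt-Rnr1* stood at 12590, 13818 and 16025 normalized counts in Empty, 27785, 28717 and 27908 in SAM1 and 24504, 23961 and 23479 in SAM2. Empty replicate 3 was the highest empty vector library for both rRNAs. The part of these transcripts in the *Lars2* values was not tested.

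**Figure D5:**
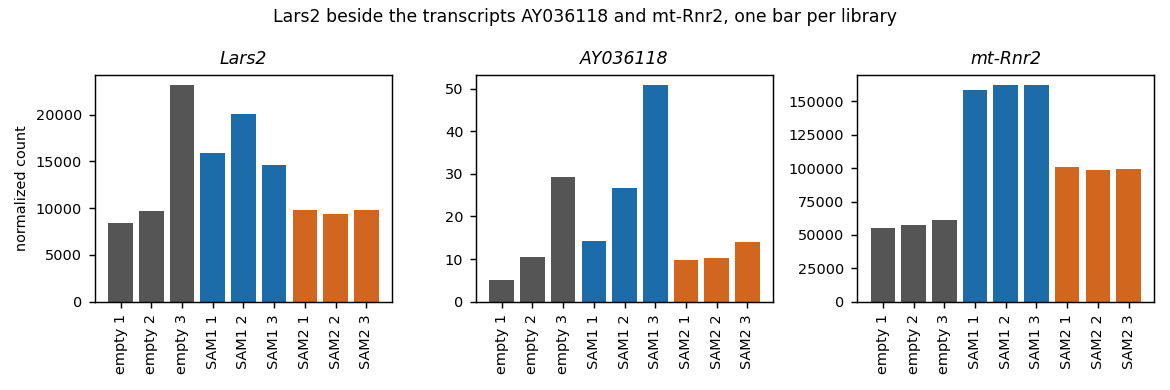
Normalized counts of *Lars2*, *AY036118* and *mt-Rnr2*, 1 bar per library. *Lars2* is 23119 in Empty replicate 3 against 8390 and 9730 in the other empty vector libraries, while *mt-Rnr2* ranges from 55478 to 60855 in empty vector.

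The members with TGATGNAA in the promoter window, *Aars*, *Gars*, *Iars*, *Tars* and *Yars*, differed between the lines by 0.24 to 0.68 (median 0.58, n = 5). The 8 cytosolic members without it in the window ranged from -0.057 to 0.58 (median 0.27), and the 7 that were not searched had a median of 0.56. The ranges overlapped, and no test was made between them.

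Genes that act with the synthetases were taken from lists. Over all genes, 37.3% were called higher and 36.9% lower in SAM1 (74.3% together), and 35.2% and 35.3% in SAM2 (70.5%). Between the lines 31.1% were called higher and 29.2% lower in SAM2 (60.3%). The counts of every list below are to be read beside these shares. Of 13 partners and relatives, 8 fell and 2 rose in SAM1, 6 fell and 3 rose in SAM2, and SAM2 exceeded SAM1 in 4 and was lower in 2. *Pstk*, the kinase on the route from seryl- to selenocysteinyl-tRNA, changed by -0.65 ± 0.060, adjusted p = 4.28e-07 in SAM1 and -0.44 ± 0.060, adjusted p = 2.11e-05 in SAM2. Of 19 genes of tRNA processing and export, 8 fell and 4 rose in SAM1, 6 fell and 6 rose in SAM2, and SAM2 exceeded SAM1 in 6 and was lower in 3. *Rpp40*, a protein of ribonuclease P, fell by 0.72 ± 0.045 and 0.58 ± 0.045 on the log2 scale, while *Pop1* of the same enzyme rose by 0.38 ± 0.034 and 0.44 ± 0.034, and the RNA-binding protein gene *Ssb* by 0.25 ± 0.032 and 0.29 ± 0.032.

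Of 20 genes for RNA polymerase III, which transcribes tRNA genes, and its initiation factors, 8 rose and 8 fell in SAM1, 8 rose and 5 fell in SAM2, and SAM2 exceeded SAM1 in 8 and was lower in 5. *Polr3d* rose in both lines (0.80 ± 0.035 and 0.66 ± 0.035), as did *Polr3a* (0.35 ± 0.050 and 0.41 ± 0.050), and *Gtf3c3*, a subunit of TFIIIC, fell (-0.80 ± 0.037 and -0.58 ± 0.037). The median differences between the lines were 0.019 for the partners, 0.037 for tRNA processing and 0.060 for the polymerase, against -0.0075 over all genes.

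Genes of the amino acid response, downstream of ATF4, were lower in SAM1 than in SAM2 throughout their list. Of its 24 genes, 23 fell and 1 rose in SAM1 (median -0.78), 7 fell and 12 rose in SAM2 (median 0.18), and all 24 were higher in SAM2 than in SAM1 (median difference 0.95), where 31.1% of all genes were called higher. *Atf4* itself stood at 24900.1, 26588 and 25338 normalized counts in Empty, 22927, 24227 and 22715 in SAM1 and 33170.2, 32793 and 32596 in SAM2. It was lowest in SAM1 (-0.14 ± 0.032, adjusted p = 0.00187) and highest in SAM2 (0.36 ± 0.032, adjusted p = 3.85e-07), with no overlap, and measures message only, while ATF4 is regulated chiefly in translation. *Ddit4*, an inhibitor of mTORC1 signalling, was the 1 gene that rose in SAM1 (0.32 ± 0.029, and 0.42 ± 0.029 in SAM2). *Pycr1*, of proline synthesis, fell in both (-1.63 ± 0.037 and -0.68 ± 0.037), as did the transcription factor gene *Atf5* (-0.99 ± 0.033 and -0.30 ± 0.033). Of 15 interferon response genes, read because *Wars* is inducible by interferon, 14 fell in SAM1, 13 fell and 1 rose in SAM2, and SAM2 exceeded SAM1 in 12 and was lower in 1. *Ifit3*, *Irf7* and *Gbp3* changed by -2.28 ± 0.061, -2.52 ± 0.061 and -1.69 ± 0.071 in SAM1 and by -2.04 ± 0.061, -2.23 ± 0.061 and -1.78 ± 0.071 in SAM2.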

How the data were processed

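The authors checked reads with FastQC (0.11.0), aligned paired 43-base reads with TopHat2 and Bowtie2, counted them with HTSeq, and divided counts by DESeq2 size factors, on GRCm39. What they deposited is a signal, namely counts after scaling by library (normalized counts), and all 15184 genes exceed 10 in at least 30% of libraries. Dividing by the step of each library gave whole reads for 100% of values (tolerance 0.01) in all 9 libraries. Because the unit is normalized, limma (3.58.1, R 4.3.3, with trend) was run on log2(value + 1) over all genes, with p-values adjusted by Benjamini-Hochberg and called below 0.05, in 1 fit of the 6 libraries labelled Hnrnpk_SAM against 3 Empty, and 1 fit with 3 groups. Fold changes are on this log2 scale, errors are SE, and values per library are in order of replicate number. No member was lost to a filter at 10 in every library. Scripts were tested on simulated data. Alternatives were other pseudocounts, TMM and quantile scaling, a replicate block, edgeR (4.0.16) and DESeq2 (1.42.0) on recovered reads, subtraction in each library of the median deviation of listed genes of the chromosome or within 5 Mb before the fit, and leaving out each library.

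Genes were placed with a later GENCODE release on GRCm39 (14876 placed, 68 names found more than once, 240 not placed). Levels per kilobase used the union of annotated exons. Shared stretches of 43 bases were counted against transcripts of other genes on either strand. They therefore include stretches of opposite strand, which counting by strand would keep apart. Values of 1 member and 1 sequence are not reported here. Members and lists were chosen with earlier results of these data known, the lists from general knowledge. Library values are given for the 6 members that rose most and the 6 that fell most in the pooled comparison without overlap, the 6 with the largest difference between lines, and those called in opposite directions, and 3 genes by adjusted p were named per list, with *Atf4*, *Aimp1*, *Aimp2* and *Eef1e1*. The authors counted against a Gencode annotation, and the strand setting is not given in the sources used here.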

Additional observations from a re-analysis of the deposited data

Results flagged for a closer look

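The lines moved in opposite directions against the same empty vector libraries for 7 members, all of the cytosolic set, and the difference between the lines was itself past the threshold in limma for each. It was 0.89 for *Lars*, 0.68 for *Gars*, 0.58 for *Iars*, 0.56 for *Nars*, 0.47 for *Sars*, 0.45 for *Farsb* and 0.40 for *Mars1*, on the log2 scale as SAM2 minus SAM1. The call of *Mars1* in SAM1 was lost without any 1 of Empty replicate 2, SAM1 replicates 2 and 3, and SAM2 replicates 1 and 2, with adjusted p up to 0.103. That of *Nars* in SAM2 was lost relative to the chromosome median or to genes within 5 Mb. In both of these settings *Aars* and *Wars* were called lower in SAM1 and higher in SAM2. In all, 28 members differed between the lines, a call made for 60.3% of all genes. Of all genes, 3.24% were called lower in SAM1 and higher in SAM2. *Farsa* in SAM1 replicate 2, at 4183 normalized counts, lay above the other 5 libraries labelled Hnrnpk_SAM by Dixon's criterion, which chance meets in about 1 in 20 groups. The criterion was applied to all 37 members with both lines as 1 group. The value lies within the range of *Farsa* in Empty (4093, 4351 and 4174).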

How the results depend on the processing

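The limits are the 3 libraries per group, lines that may each be 1 culture, and depth, which left every member above 10 normalized counts in every library. Between 2 libraries of a group, squared read differences averaged 11.5 to 13.8 times read sampling alone in Empty. They averaged 1.46 to 9.49 times in SAM1 and 1.54 to 2.33 times in SAM2, and the cause was not tested. The fit with 3 groups uses 1 spread shared by these unequal groups. Over the 37 members and 4 comparisons, edgeR on recovered reads, both other pseudocounts and the filter changed no call, TMM scaling ended 1 and DESeq2 ended 4 and added 2. Larger changes, beside the sign changes given below, came with quantile normalization (7 calls ended, 7 added), subtraction of the chromosome median (19 and 12) and subtraction for genes within 5 Mb (12 and 13). Quantile normalization ended calls for *Aars2* and *Rars* pooled, *Cars* and *Qars* in SAM2, and *Dars* and *Pars2* between the lines. The chromosome median ended those for *Aars2*, *Fars2*, *Hars*, *Kars*, *Mars2*, *Nars2*, *Rars2*, *Tars* and *Vars* pooled, *Kars*, *Mars1*, *Mars2* and *Tars2* in SAM1, *Fars2*, *Mars2*, *Nars*, *Nars2* and *Rars2* in SAM2, and *Pars2* between the lines. Genes within 5 Mb ended those for *Aars2*, *Hars*, *Iars2*, *Pars2*, *Rars*, *Rars2*, *Tars* and *Vars* pooled, *Iars2*, *Pars2* and *Tars2* in SAM1, and *Nars* in SAM2. Among the calls added, each of these settings called *Hars2* lower in SAM1, and *Tars2* lower and *Wars* higher in SAM2. *Aars* and *Farsa* were called lower in SAM1 with both subtractions, *Aars* also with DESeq2. DESeq2 called 4 members lower in SAM2 than in SAM1, against 7 with limma. In the pooled comparison the 6 members called higher became 2 relative to the chromosome median and 2 to 5 when 1 library was left out, with 2, 3 and 2 without Empty replicates 1, 2 and 3.

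Replicate numbers are shared between the groups. Same-numbered libraries had correlations of their deviations from -0.024 to 0.33 in 9 pairs, of which 2 exceeded 0.1 (mean 0.092, against -0.046 for different numbers). The labels give the numbers no shared source and not every pair exceeded 0.1, so the numbers were not taken to pair the libraries, although 7 of 9 libraries correlated best with their own number, a hint from the data and not from the design. With the replicate number as a block, 3 members were called higher and 9 lower in the pooled comparison, 7 and 25 in SAM1, 14 and 14 in SAM2, and 21 and 7 between the lines.

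The following estimates changed sign, each on the log2 scale. With quantile normalization, *Qars* was at 0.0062 in the pooled comparison, *Aars* at 0.21, *Mars1* at 0.045 and *Qars* at 0.021 in SAM1, and *Eprs* at 0.083 and *Rars* at 0.035 in SAM2. Relative to the chromosome median, *Qars* was at 0.062 pooled, 0.062 in SAM1 and 0.063 in SAM2, *Tars* at -0.018 and *Vars* at -0.020 in SAM1, and *Cars* at 0.13, *Eprs* at 0.12, *Hars* at -0.016, *Vars2* at -0.12 and *Yars* at 0.13 in SAM2. Relative to genes within 5 Mb, in the fit repeated after subtraction in each library, *Mars2* was at 0.27 and *Qars* at 0.12 pooled. In SAM1, *Mars1* was at 0.027, *Mars2* at 0.28, *Qars* at 0.085, *Tars* at -0.16 and *Vars* at -0.085. In SAM2, *Cars* was at 0.22, *Eprs* at 0.30, *Hars* at -0.033, *Iars2* at 0.032, *Mars2* at 0.25, *Qars* at 0.15, *Rars* at 0.033, *Rars2* at 0.023, *Vars2* at -0.15 and *Yars* at 0.099. *Dars* was at -0.0086 between the lines, where plain subtraction of the regional median kept its sign (0.051). The cause of these changes was not tested beyond the subtraction itself. Quantile normalization shifted the median of all genes by -0.056 in SAM1.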
